A study of Mus musculus with 24 samples.

Results

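AMPA receptor genes of the mouse hypothalamus are described here by 10 genes chosen by name, namely the 4 pore-forming subunit genes Gria1, Gria2, Gria3 and Gria4, the auxiliary subunit genes Cacng2, Cacng3, Cacng4, Cacng7 and Cacng8, and Shisa7. They are 10 of the 45706 genes in the deposited table, and all 10 were among the 15667 genes with enough counts to be tested. Poly(A) RNA was sequenced from whole hypothalamus of male mice with diet-induced obesity, with a mean body weight of 53 g and 2 animals per cage. The groups were PSD-95i (25 mg/kg UCCB01-147, an inhibitor of the synaptic scaffold protein PSD-95), PICK1i (56 mg/kg mPD5, which inhibits the PDZ protein PICK1, a binding partner of GluA2) and isotonic saline, with 8 libraries each. All mice received 1 injection a day for 5 days, and tissue was collected 2 h after the last. The labels name the targets and the protocol the compounds, and the match rests on the known targets of both compounds. For saline the protocol gives 6 mice and the labels give 8 libraries, all of which were used. Separate mice were assumed for separate libraries, which the labels do not state. The whole tissue holds many cell types, and in it fewer cells of a type and less RNA per cell cannot be told apart.

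AMPA receptors are glutamate-gated cation channels that carry most fast excitatory transmission in the brain, including the glutamatergic inputs to hypothalamic neurons that control feeding. The GRIA subunits form the pore, and receptors with an edited GluA2 subunit, the Gria2 product, admit little calcium. Transmembrane AMPA receptor regulatory proteins (TARPs), encoded by Cacng genes, bring receptors to the surface and slow their closing. The C-terminal tail of several TARPs binds PSD-95, and PICK1 binds the tail of GluA2 and takes part in its removal from the synapse. SHISA7 has been described as an auxiliary subunit of AMPA receptors in hippocampus and of GABA-A receptors.

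Each GRIA subunit is made in a flip and a flop form, which differ in 1 of 2 neighbouring exons of 115 bases next to the last membrane segment and differ in how fast the channel desensitises. These exons are shown because the flip share given below is read from transcripts that hold 1 of them. The sequences are from GRCm38 with the GENCODE M21 exon annotation, 5′ to 3′ on the strand of the gene, and capitals mark the bases at which flip and flop of the same gene differ.
Gria1 flip: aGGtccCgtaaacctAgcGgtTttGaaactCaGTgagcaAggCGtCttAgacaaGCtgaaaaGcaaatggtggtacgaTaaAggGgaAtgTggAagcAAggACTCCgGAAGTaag
Gria1 flop: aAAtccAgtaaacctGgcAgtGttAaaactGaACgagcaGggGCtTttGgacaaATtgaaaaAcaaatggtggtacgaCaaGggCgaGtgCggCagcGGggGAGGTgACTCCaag
Gria2 flip: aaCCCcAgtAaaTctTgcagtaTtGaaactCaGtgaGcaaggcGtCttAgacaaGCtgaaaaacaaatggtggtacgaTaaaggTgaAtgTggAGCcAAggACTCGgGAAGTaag
Gria2 flop: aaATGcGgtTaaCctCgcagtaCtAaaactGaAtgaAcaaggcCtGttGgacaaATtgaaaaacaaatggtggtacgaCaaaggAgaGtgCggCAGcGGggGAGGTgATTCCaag
Gria4 flip: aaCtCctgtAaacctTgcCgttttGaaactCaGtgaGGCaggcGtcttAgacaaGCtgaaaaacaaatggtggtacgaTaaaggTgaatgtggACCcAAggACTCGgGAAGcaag
Gria4 flop: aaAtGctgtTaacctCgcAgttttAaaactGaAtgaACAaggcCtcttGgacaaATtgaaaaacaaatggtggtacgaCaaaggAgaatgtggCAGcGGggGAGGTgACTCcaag
The exons lie within the coding part of Gria1 at chr11:57310608-57310722 (flip) and chr11:57309769-57309883 (flop) on the plus strand. Those of Gria2 lie at chr3:80690404-80690518 (flip) and chr3:80691320-80691434 (flop) on the minus strand, and those of Gria4 at chr9:4427030-4427144 (flip) and chr9:4432773-4432887 (flop), also on the minus strand. Flip and flop of the same gene differed at 36 of 115 bases in Gria1 and Gria2, at 32 in Gria3 and at 31 in Gria4. Between genes, the same exon was 87.8 to 94.8% identical, with identical runs of 18 to 56 bases. A read is 52 bases long, so a single read inside such a run does not tell some pairs of subunits apart.

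Depth and the content of marker transcripts differed between libraries, and their part in the values of the AMPA receptor genes was not tested. Counts summed to 4762703 to 9228858 per library, and the 10 genes held 0.125 to 0.182% of them. All 16 hypothalamic marker genes were detected in each group. Summed anterior pituitary markers reached at most 203 CPM in PSD-95i and 242 CPM in PICK1i libraries, against 76648 and 55994 CPM in saline replicates 2 and 3 and 90.9 CPM in the lowest saline library. Pomc alone made up 189, 228 and 76.8 CPM of the sums of 203, 242 and 90.9 CPM, where Gh was at 0.456, 0 and 1.79 CPM. Gh was at 51984 and 32057 CPM in saline replicates 2 and 3 and at 40.9 CPM in PSD-95i replicate 3. PICK1i replicate 6 held 1028.7 CPM of 12 summed cortex and hippocampus neuron markers, while the highest other libraries held 283 CPM in PSD-95i, 301 CPM in PICK1i and 472 CPM in saline. PICK1i replicate 6 also had the lowest Pomc and Avp of the 24 libraries, at 8.20 and 92.2 CPM. Hcrt and Pmch were highest in it, at 209 and 716 CPM. Its summed hypothalamic markers, 1338.5 CPM, lay within the range of the other PICK1i libraries. Mitochondrially encoded transcripts made up 8.51 to 10.4% of counts in PSD-95i, 13.5 to 16.6% in PICK1i replicates 1, 2, 5 and 6, 8.70 to 11.2% in the other PICK1i libraries and 7.88 to 10.7% in saline. CPM is counts per 1e6 counts of a library, with totals scaled by TMM. TPM is unscaled gene counts divided by 1 length per gene and brought to a sum of 1e6 per library. The length is the mean over the gene's transcripts, weighted by their counts over all libraries. For a gene with forms of unequal length, this gives a lower value before scaling than lengths taken form by form. TPM was made without TMM, so the 2 measures can differ between groups.

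Saline replicate 2 had the lowest CPM of all 24 libraries for 7 of the 10 genes and saline replicate 3 for the other 3. Saline replicate 2 was among the lowest 3 for all 10 genes, and saline replicate 3 for 9. PICK1i replicate 6 was the highest of 24 for Gria3, Cacng3, Cacng7 and Shisa7. The ratio of highest to lowest library ran from 1.29 for Gria4 to 4.02 for Cacng3. The coefficient of variation over all libraries was 7.17% for Gria4 and 31.5% for Cacng3, while counting error alone gives 3.39% and 7.30%.

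**Figure D1:**
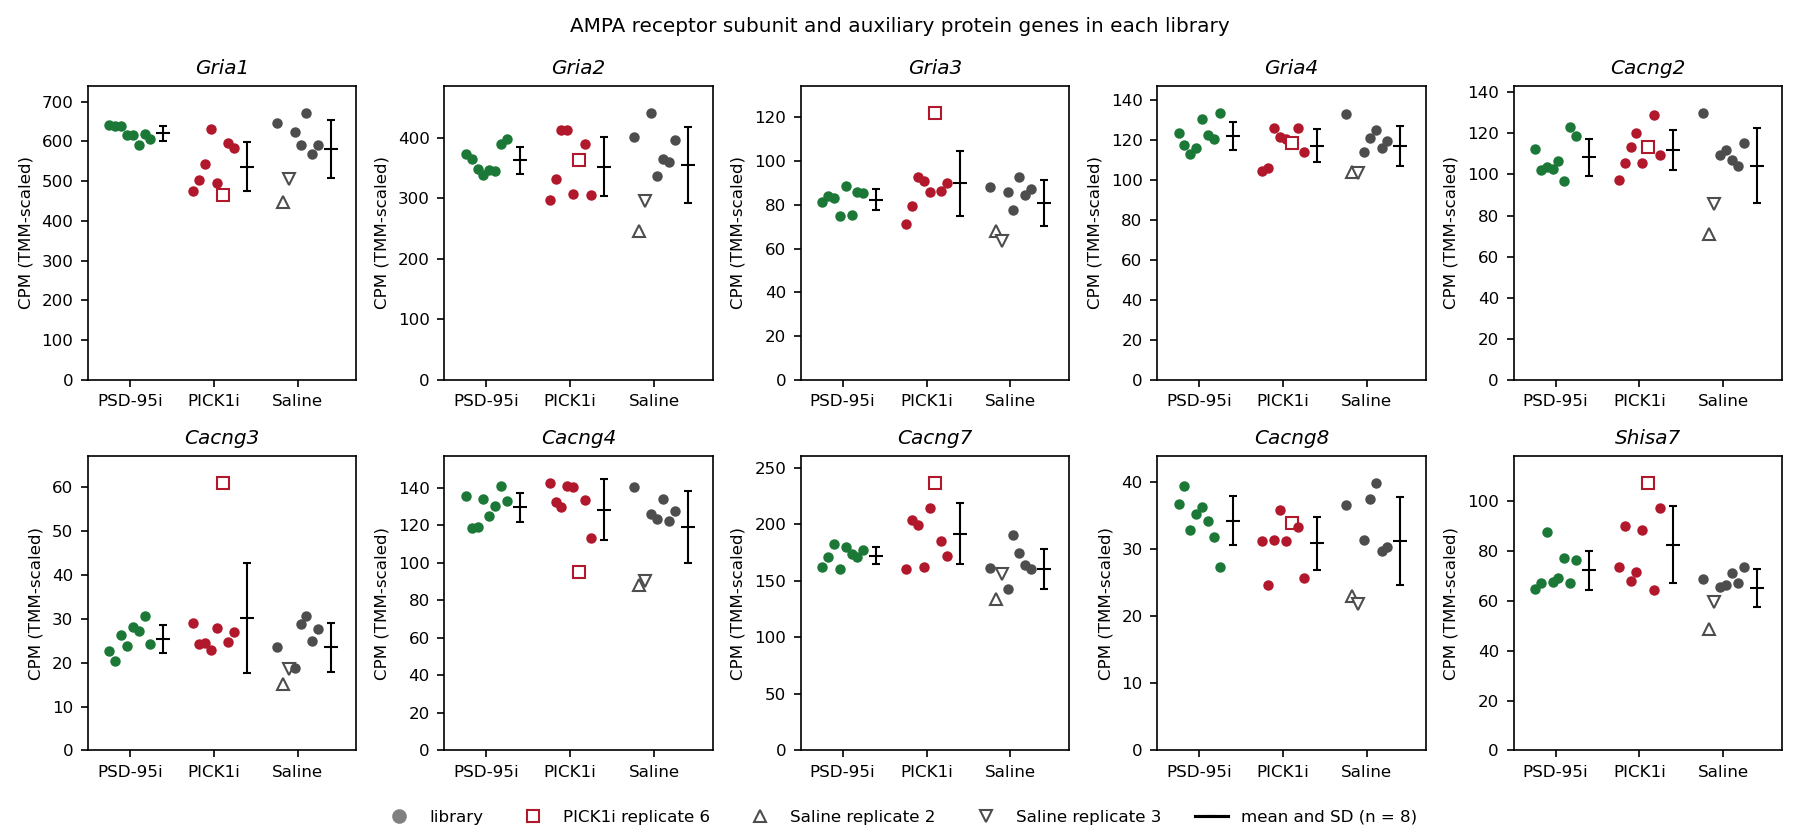
CPM of the 10 genes (vertical axes, from 0) in each of 24 libraries, by group, with the mean and SD of 8 libraries at the side. Saline replicates 2 and 3 (open triangles) lie at or near the bottom of their group for most genes, and PICK1i replicate 6 (open square) lies at the top for Cacng3 at 60.9 CPM.

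Per transcript length, Gria1 and Cacng7 were the most abundant of the 10 and Cacng3 the least. In TPM, Gria1 averaged 248 ± 10.6 in PSD-95i, 195 ± 41.8 in PICK1i and 223 ± 36.7 in saline (SD, n = 8 each). Cacng7, which encodes the TARP gamma-7, averaged 167 ± 9.29 TPM in PSD-95i, 167 ± 24.4 TPM in PICK1i and 150 ± 20.8 TPM in saline. Gria2 followed at 138 ± 10.1 TPM in PSD-95i, 121 ± 27.1 TPM in PICK1i and 130 ± 26.9 TPM in saline. Next came Cacng4 (TARP gamma-4), at a mean of 79.8, 71.3 and 70.8 TPM in PSD-95i, PICK1i and saline, and Gria4 at 57.4, 49.9 and 52.9 TPM in the same groups. The remaining means in saline were 41.2 TPM for Cacng8 (gamma-8), 39.3 for Cacng2 (gamma-2, or stargazin), 35.8 for Gria3, 28.7 for Shisa7 and 17.9 for Cacng3 (gamma-3).

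The order of mean levels was the same in PSD-95i and saline, and in PICK1i Cacng2 and Cacng8 changed places. Neighbours in this order mostly overlapped in range over libraries. In saline, Cacng8 exceeded Cacng2 in 4 of 8 libraries, Cacng2 exceeded Gria3 in 6 of 8 and Cacng7 exceeded Gria2 in 7 of 8, whereas each other gene exceeded the next one in 8 of 8. Of the summed TPM of the 4 Gria genes, Gria1 made up 51.6 ± 1.47% in PSD-95i, 48.2 ± 2.91% in PICK1i and 50.6 ± 1.40% in saline (SD, n = 8 each). Gria2 made up 28.6 ± 1.14%, 30.0 ± 2.08% and 29.2 ± 2.10% in the same groups. Gria4 made up 11.96%, 12.4% and 12.1%, and Gria3 made up 7.87%, 9.31% and 8.11%. These shares depend on the averaged length of each gene and take in forms not annotated as protein-coding. Forms typed as nonsense-mediated decay held 65.4% of Gria3 and 20.8% of Gria2 counts over all libraries, and Gria2 also has retained-intron forms. The shares are therefore not those of subunit proteins. Of the summed TPM of the 5 Cacng genes described here, Cacng7 made up 47.0 ± 1.79% in PSD-95i, 49.5 ± 3.66% in PICK1i and 47.3 ± 3.498% in saline.

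**Figure D2:**
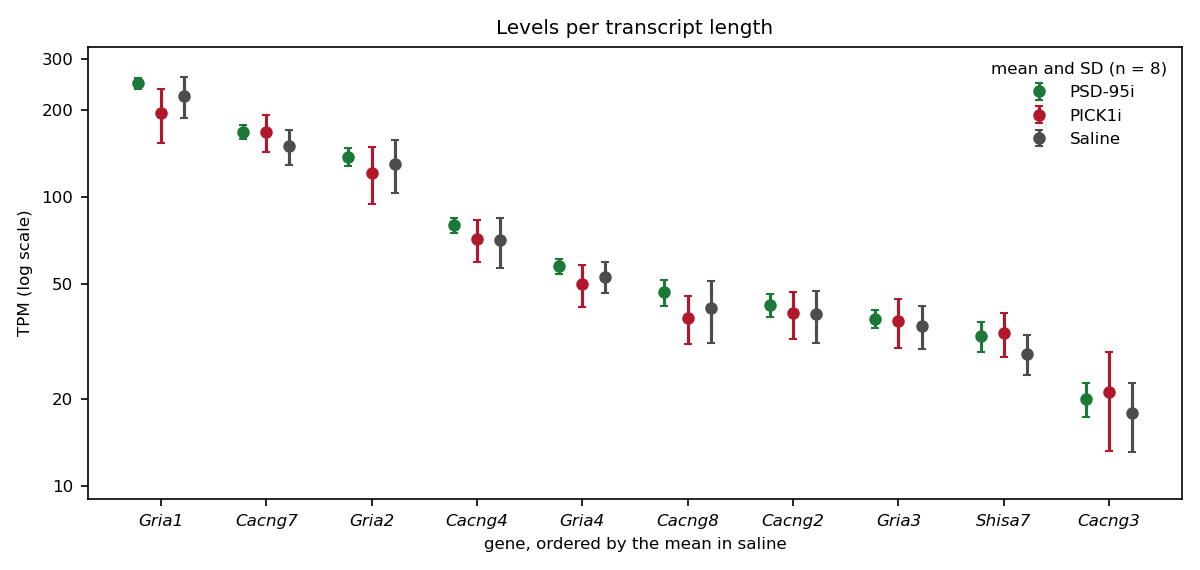
Mean TPM with SD of 8 libraries (vertical axis, log scale) for the 10 genes in PSD-95i, PICK1i and saline, ordered by the saline mean. Gria1 has the highest mean in every group, at 248, 195 and 223 TPM, and Cacng3 the lowest, at 19.98, 21.1 and 17.9 TPM.

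The comparison of PICK1i with saline asked whether transcripts of the receptor that PICK1 binds differ after its inhibition. Cacng7 and Shisa7 were higher in PICK1i in the fit to all libraries, in calls that several other fits did not keep, and the 4 subunit genes did not pass the test. Of the 10 genes 2 were called higher and 0 lower in edgeR at an adjusted p under 0.05, where 9.15% of all 15667 genes were called, 4.88% higher and 4.27% lower. At an unadjusted p under 0.05 they were the same 2 of 10, against 28.8% of all genes, and DESeq2 also called these 2, where it called 12.7% of all genes. The median log2 fold change of the 10 genes was 0.11, beside -0.01 for all genes tested.

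Among the pore-forming subunits, Gria1 had 466 CPM in the lowest PICK1i library, a median of 523 and 631 in the highest, against 447, 591 and 672 CPM in saline. The groups overlapped, with 2 of 8 PICK1i libraries above the saline median. Its log2 fold change was -0.11 ± 0.07 (SE, edgeR adjusted p = 0.32). The 4 PICK1i libraries with the high mitochondrial share held 466 to 503 CPM of Gria1 and the other 4 held 544 to 631 CPM, and the part of that share in the Gria1 values was not tested. Gria2 ranged from 297 to 414 CPM in PICK1i, with a median of 348, against 245 to 442 CPM in saline, with a median of 363, and gave -0.01 ± 0.09 (adjusted p = 0.95). Gria4 ranged from 104 to 126 CPM in PICK1i and from 103 to 133 CPM in saline and gave 0.00 ± 0.06 (adjusted p = 0.98). Gria3 had a median of 88.1 CPM in PICK1i, with 122.1 CPM in replicate 6 and at most 92.7 CPM in the others, against a median of 85.2 CPM in saline. Its log2 fold change of 0.15 ± 0.08 had an adjusted p of 0.24 in edgeR.

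Among the auxiliary genes, Cacng7 had 161 CPM in the lowest PICK1i library, a median of 192 and 236 in the highest, against 134, 161 and 190 CPM in saline. In PICK1i 7 of 8 libraries lay above the saline median and 4 above every saline library, so the groups overlapped in part. Cacng7 averaged 192 ± 26.7 CPM in PICK1i and 160 ± 17.4 CPM in saline (SD, n = 8 each), a log2 fold change of 0.26 ± 0.07 (SE, edgeR adjusted p = 0.034). Shisa7 had a lowest value of 64.6 CPM, a median of 81.2 and a highest value of 107 CPM in PICK1i, against 48.9, 66.8 and 73.4 CPM in saline. Again 7 of 8 PICK1i libraries lay above the saline median, and 5 lay above every saline library. Shisa7 averaged 82.6 ± 15.4 CPM in PICK1i and 65.2 ± 7.77 CPM in saline, a log2 fold change of 0.34 ± 0.10 (edgeR adjusted p = 0.032).

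Both calls depended on the choice of libraries and of fit. Without saline replicates 2 and 3, Cacng7 was at 0.20 (adjusted p = 0.11) and Shisa7 at 0.25 (adjusted p = 0.11), and 5 genes were called in all. With PICK1i replicates 1, 2, 5 and 6 left out the values were 0.16 (adjusted p = 0.39) and 0.21 (adjusted p = 0.43), with 0 genes called in all. With both sets left out they were 0.11 and 0.12. Leaving out 1 library at a time, each gene stayed called in 10 of 16 fits. Cacng7 was lost without PICK1i replicate 2, 5 or 6 or saline replicate 2, 3 or 4, and Shisa7 without PICK1i replicate 2, 5, 6 or 8 or saline replicate 2 or 3. With every library kept, both were also lost with the 2 groups fitted alone (adjusted p = 0.12 for Cacng7 and 0.10 for Shisa7), with length tilt as a covariate (0.18 and 0.24) and with sample weights in limma-voom (0.14 and 0.19). Mice were housed 2 per cage and the labels tie no library to a cage. With libraries of consecutive number as a random block in limma-voom, the adjusted p was 0.069 for Cacng7 and 0.076 for Shisa7. The summed neuron markers, 10 genes, were also highest in PICK1i replicate 6, at 5806 CPM, and lowest in saline replicate 2, at 3336 CPM, with medians of 4984 CPM in PICK1i and 4625 CPM in saline. The part of neuron content in the Cacng7 and Shisa7 values was not tested.

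The other TARP genes did not pass. Cacng3 had the same fold change as Shisa7, 0.34 ± 0.17, with an adjusted p of 0.18. It ranged from 22.98 to 60.9 CPM in PICK1i, with a median of 25.9, and from 15.2 to 30.7 CPM in saline, with a median of 24.2. The next PICK1i library after replicate 6 had 29.1 CPM, and without replicate 6 and saline replicates 2 and 3 the fold change was -0.01 (adjusted p = 0.99). The cortex and hippocampus markers of that library are given above, and their part in the Cacng3 value was not tested. Cacng2 gave 0.10 ± 0.09 (adjusted p = 0.46), Cacng4 gave 0.11 ± 0.09 (adjusted p = 0.43) and Cacng8 gave -0.02 ± 0.11 (adjusted p = 0.93). Cacng7 and Cacng8 are neighbours on chromosome 7, at 3332955 to 3368221 and 3390683 to 3415648 on the plus strand, with 22461 bases between them. Shisa7 lies on the same chromosome at 4825552 to 4844696 on the minus strand. Of these neighbours Cacng7 was called and Cacng8 was not, and a difference between the changes of the 2 genes was not tested.

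**Figure D3:**
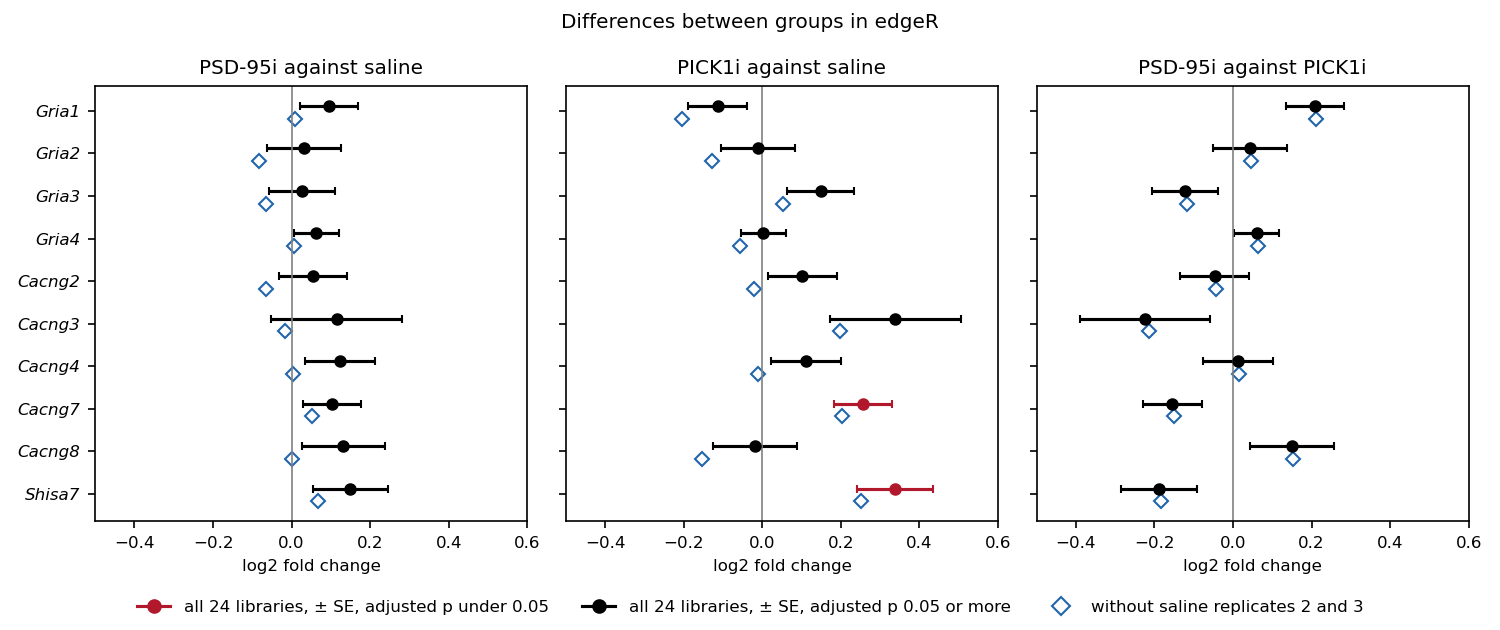
Log2 fold changes of the 10 genes (horizontal axes) for each inhibitor against saline and between the inhibitors, with SE from the fit to 24 libraries, and the same without saline replicates 2 and 3 (open diamonds). Cacng7 (0.26) and Shisa7 (0.34) in PICK1i against saline passed the test in the fit to all libraries, and the diamonds lie to the left of every filled point in both comparisons with saline.

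In PSD-95i against saline, 0 of the 10 genes were called and 0 had an unadjusted p under 0.05. Over all genes 0% were called in edgeR (0 of 15667, with 1719 or 11% at an unadjusted p under 0.05), and DESeq2 and limma-voom also gave 0. All 10 log2 fold changes were above 0, from 0.03 for Gria3 and Gria2 to 0.15 for Shisa7, with a median of 0.10, where 49.1% of all genes were above 0. Without saline replicates 2 and 3 the values were -0.08 for Gria2, -0.06 for Gria3 and Cacng2, -0.02 for Cacng3 and between 0.00 and 0.07 for the other 6, of which Cacng8 lay just below 0 before rounding. The comparisons of PSD-95i and of PICK1i with saline share the saline libraries, so like signs in them are not separate observations.

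Libraries of PSD-95i were close to each other. Gria1 ranged from 590 to 642 CPM in PSD-95i, with a median of 617, and from 447 to 672 CPM in saline, with a median of 591. Its fold change was 0.10 ± 0.07 (adjusted p = 0.63), with 7 of 8 PSD-95i libraries above the saline median. Cacng7 ranged from 161 to 182 CPM in PSD-95i and from 134 to 190 CPM in saline, for a fold change of 0.10 ± 0.07 (adjusted p = 0.60). Shisa7, at 64.8 to 87.8 CPM in PSD-95i and 48.9 to 73.4 CPM in saline, gave 0.15 ± 0.10 (adjusted p = 0.56). Cacng8, the hippocampal TARP gamma-8 that binds PSD-95, had 27.4 to 39.3 CPM in PSD-95i and 21.8 to 39.8 CPM in saline, a log2 fold change of 0.13 ± 0.11 (adjusted p = 0.64).

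PSD-95i and PICK1i are different compounds given at different doses, so their comparison does not separate target from dose. In PSD-95i against PICK1i 0 of the 10 genes were called in edgeR (2 at an unadjusted p under 0.05, Gria1 and Cacng7), and 0% of all 15667 genes were called (3789 or 24.2% at an unadjusted p under 0.05). DESeq2 called Gria1, among 1359 genes or 8.67%. Gria1 had 590, 617 and 642 CPM as lowest, median and highest value in PSD-95i, against 466, 523 and 631 CPM in PICK1i. The groups overlapped, while 8 of 8 PSD-95i libraries lay above the PICK1i median and 3 lay above every PICK1i library. Gria1 averaged 620 ± 18.4 CPM in PSD-95i and 536 ± 61.5 CPM in PICK1i (SD, n = 8 each), a log2 fold change of 0.21 ± 0.07 (SE, edgeR adjusted p = 0.095).

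The Gria1 difference passed the test without saline replicates 2 and 3 (0.21, adjusted p = 0.035), without PICK1i replicate 4 (0.25, adjusted p = 0.037) and without PICK1i replicate 7 (0.23, adjusted p = 0.038). With PICK1i replicates 1, 2, 5 and 6 left out it was 0.08 (adjusted p = 1.00), and with the transcript length tilt of each library as a covariate 0.03 (adjusted p = 1.00). Length tilt is the slope of a library's log2 deviations on log2 transcript length, which was -0.172 to -0.0958 in those 4 PICK1i libraries and -0.024 to 0.0886 in the other 20. Cacng7 had a log2 fold change of -0.15 ± 0.07 (adjusted p = 0.20), with 0 of 8 PSD-95i libraries above the PICK1i median. Shisa7 was at -0.19 ± 0.10 (adjusted p = 0.23), and the other 7 genes lay between -0.22 for Cacng3 and 0.15 for Cacng8 with adjusted p of at least 0.39.

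**Figure D4:**
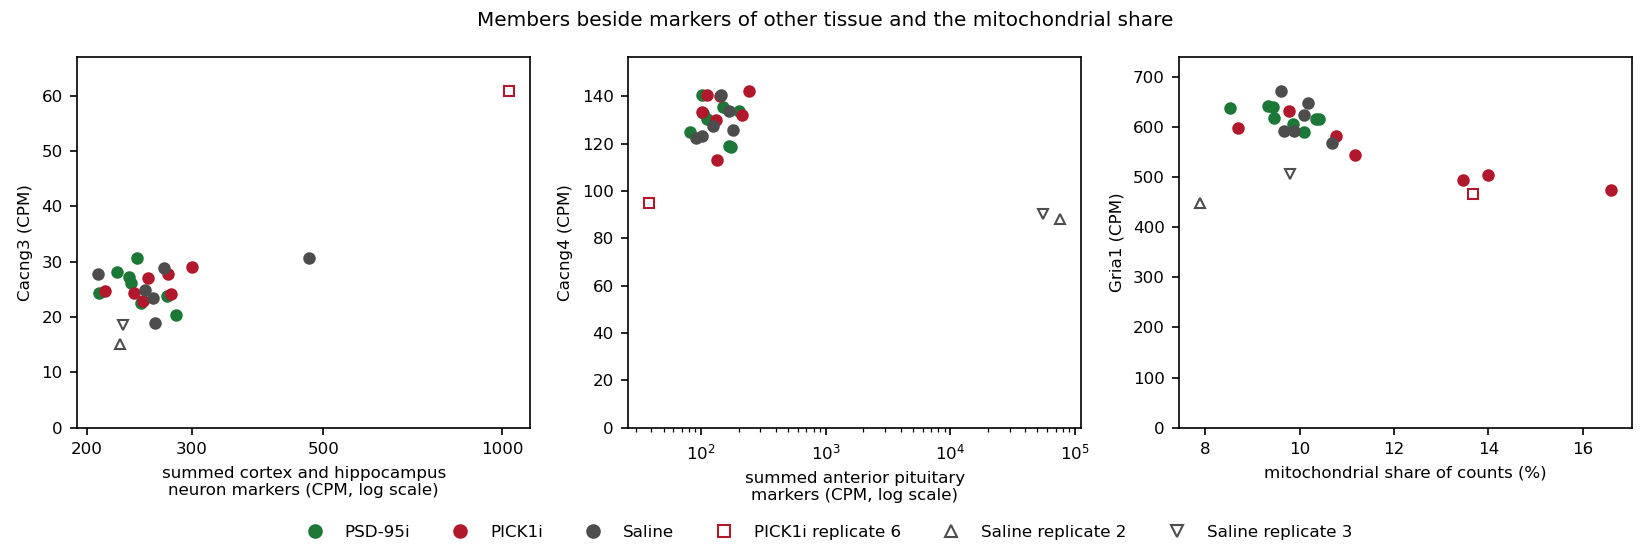
CPM of Cacng3, Cacng4 and Gria1 in each of 24 libraries (vertical axes) against summed cortex and hippocampus markers, summed anterior pituitary markers (log scales) and the mitochondrial share of counts in percent. PICK1i replicate 6 stands apart at 1028.7 CPM of cortex markers and 60.9 CPM of Cacng3. Saline replicates 2 and 3 stand apart in pituitary markers and lie at 88.3 and 90.1 CPM of Cacng4, near PICK1i replicate 6 at 94.8 CPM. The 4 PICK1i libraries above 13% of mitochondrial counts lie at 466 to 503 CPM of Gria1, between saline replicates 2 and 3 at 447 and 506 CPM.

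Gria1 stood apart from the other 3 subunit genes in its splice forms, in every library. The flip share, the flip counts over the sum of flip and flop counts, averaged 92.5 ± 1.47% for Gria1 in PSD-95i, 91.9 ± 2.99% in PICK1i and 92.6 ± 1.59% in saline (SD, n = 8 each). For Gria2 it was 13.9 ± 2.00% in PSD-95i, 17.8 ± 3.38% in PICK1i and 15.01 ± 1.85% in saline, and for Gria4 26.8 ± 2.39%, 20.9 ± 3.97% and 25.6 ± 2.51% in the same groups. The Gria3 share was 25.9 ± 4.58% in PSD-95i, 34.5 ± 12.99% in PICK1i and 24.01 ± 5.86% in saline. Thus Gria1 transcripts carried mostly the flip exon shown above, and the Gria2 and Gria4 transcripts assigned to 1 exon carried mostly the flop exon. The counts in these shares were not divided by length, and the forms also differ elsewhere. The flop transcript Gria2-201 is 10371 bases long and the flip transcript Gria2-202 is 4026 bases. In Gria3 the flop form Gria3-209 has 2667 bases and a mean count of 108, and the flip form Gria3-201 has 5192 bases and 42.4. The shares may therefore not reflect the exon alone, and those of different genes are not on 1 scale. Forms annotated with both exons held 62.9% of Gria3 counts in PSD-95i, 69.3% in PICK1i and 65.1% in saline, and forms with neither held 39.2%, 33.4% and 37.7% of Gria2 counts. These are not annotated as protein-coding. The forms with both exons, Gria3-206 and Gria2-203 (20.8% of Gria2 counts over all libraries), are typed as nonsense-mediated decay. The Gria2 forms with neither are typed as retained introns.

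**Figure D5:**
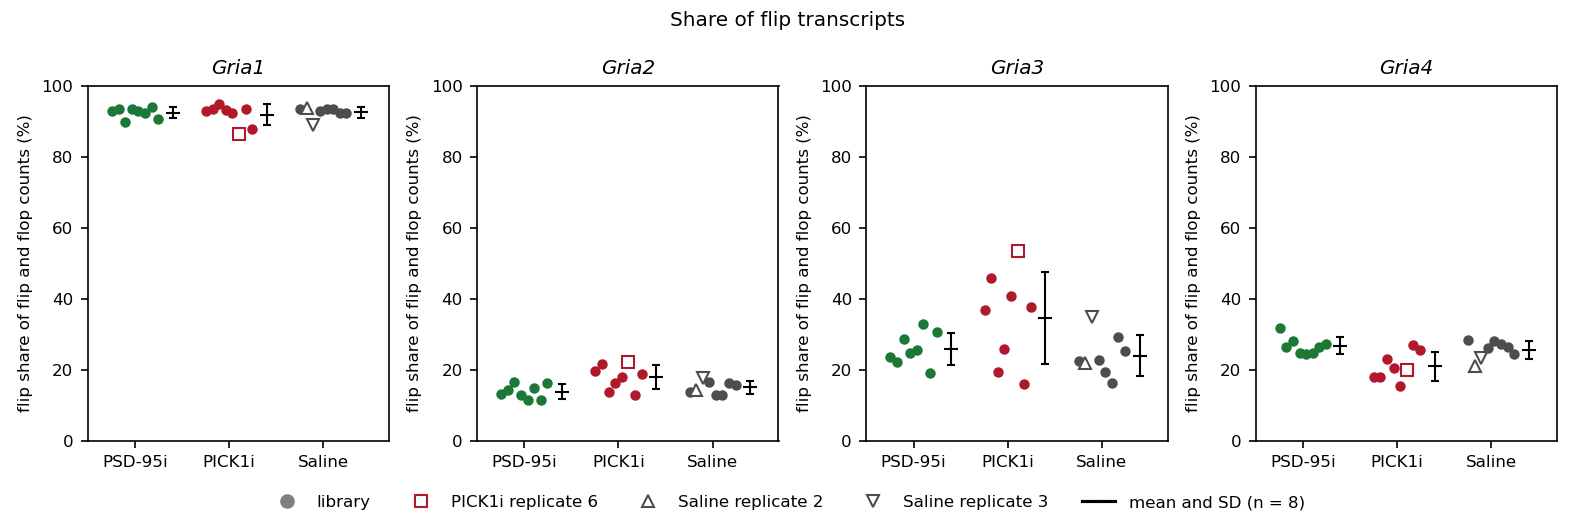
Flip share in percent of flip and flop counts (vertical axes, 0 to 100) for the 4 Gria genes in each library, with the mean and SD of 8 libraries. Gria1 lies between 86.6 and 94.9% in all libraries, Gria2 between 11.4 and 22.2%, and Gria3 spreads most in PICK1i, between 16.1 and 53.5%.

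In the transcript test 31 of the 40 transcripts of the 10 genes had enough counts. For PICK1i against saline 0 of the 31 were called in edgeR, where 2% of 37955 transcripts were called. At an unadjusted p under 0.05 there were 11 of the 31, against 23.3% of all transcripts, and DESeq2 called 3 of the 31, against 5.84% of all. Cacng7-201, the single annotated transcript of Cacng7, was at 0.25 ± 0.07 (adjusted p = 0.060). For PSD-95i against saline 0 of the 31 were called (0% of all), with 2 at an unadjusted p under 0.05, against 7.29% of all, and 0 in DESeq2. In PSD-95i against PICK1i 0 of the 31 were called in edgeR (0% of all), with 13 at an unadjusted p under 0.05, against 21.3% of all, and 1 in DESeq2, against 4.43% of all. Gria1-201, a flip form with 16.5 ± 0.84% of Gria1 counts in PSD-95i and 14.3 ± 2.50% in PICK1i, had a log2 fold change of 0.39 ± 0.12 between these groups (edgeR adjusted p = 0.079). The counts of called transcripts depended on PICK1i replicate 7. Without it 5 of the 31 passed in PICK1i against saline, where 11.1% of all transcripts passed, and 7 in PSD-95i against PICK1i, where 10.9% of all passed. Gria1-201 was among these 7 (0.47, adjusted p = 0.010). Leaving out PICK1i replicate 3, PICK1i replicate 4 or saline replicate 5 gave 1, 2 and 1 in PICK1i against saline (3.25%, 5.57% and 2.47% of all), and leaving out PICK1i replicate 4 gave 1 between the inhibitors (4.13% of all).

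Usage of a transcript relative to the other transcripts of its gene was testable for 27 of the 31. In edgeR 0 of them were called in PICK1i against saline (6 at an unadjusted p under 0.05), in PSD-95i against saline (0) and in PSD-95i against PICK1i (8), while 0.00643%, 0% and 0.00965% of all 31084 were called and 6.74%, 0.553% and 6.96% had an unadjusted p under 0.05. No other tool was run on usage. The smallest p belonged to the flip form Gria2-202, which held 5.63 ± 1.01% of Gria2 counts in PSD-95i and 7.94 ± 1.85% in PICK1i, a relative usage of -0.47 on the log2 scale (edgeR adjusted p = 0.25), and it passed without PICK1i replicate 7 (-0.55, adjusted p = 0.024), where 0.715% of all passed. In Gria4 the short form Gria4-203 held 29.9 ± 2.40% in PSD-95i, 23.8 ± 7.12% in PICK1i and 27.7 ± 1.58% in saline, and the flop form Gria4-201 held 51.4 ± 3.07%, 60.4 ± 7.93% and 53.8 ± 2.44%. PICK1i replicates 1, 2, 5 and 6 held 63.0 to 70.7% of Gria4 counts as Gria4-201, against 48.5 to 57.7% in the other 4 PICK1i libraries. In the same 4 libraries the Gria2 flip share was 17.9 to 22.2%, against 12.9 to 18.7% in the other 4, with some overlap. The Gria3 flip share was 36.9 to 53.5% in the 4 and 16.1 to 37.7% in the others, also with some overlap. The Gria4 flip share lay the other way, at 15.55 to 19.9% in the 4 and 20.5 to 26.9% in the others, without overlap. The Gria1 flip share overlapped most, at 86.6 to 93.6% in the 4 and 87.8 to 94.9% in the others. These 4 are the libraries with the high mitochondrial share and the low length tilt, and the part of RNA quality in the splice shares was not tested.

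Genes of proteins that accompany AMPA receptors were read from lists of 21 auxiliary and biogenesis partners and 19 scaffold and trafficking genes. In PICK1i against saline 2 of the 21 partners were called higher and 0 lower, a share close to the 9.15% called among all genes, with a median log2 fold change of 0.07. Olfm2, which encodes a secreted olfactomedin protein found with AMPA receptors, averaged 99.9 ± 8.12 CPM in PICK1i and 74.7 ± 16.5 CPM in saline (SD, n = 8 each), a log2 fold change of 0.42 ± 0.10 (edgeR adjusted p = 0.019). Nrn1, which encodes the neuronal surface protein neuritin, averaged 57.2 ± 24.4 CPM in PICK1i and 35.9 ± 12.6 CPM in saline, a log2 fold change of 0.65 ± 0.19 (adjusted p = 0.037). For both, 8 of 8 PICK1i libraries lay above the saline median. Both were lost with the 2 groups fitted alone (adjusted p = 0.093 for Olfm2 and 0.11 for Nrn1), with length tilt as a covariate (0.12 and 0.19), with sample weights (0.074 and 0.19) and without PICK1i replicates 1, 2, 5 and 6 (0.37 and 0.395). Without saline replicates 2 and 3 Olfm2 was at 0.26 (adjusted p = 0.054) and Nrn1 at 0.48 (adjusted p = 0.12). Olfm2 stayed called in 16 of 16 fits that left out 1 library, and Nrn1 in 10, being lost without PICK1i replicate 5 or 6 or saline replicate 2, 3, 4 or 6 (adjusted p of 0.052 to 0.092).

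Of the scaffold and trafficking genes 0 of 19 were called in PICK1i against saline, with 5 at an unadjusted p under 0.05 and a median of 0.01, beside 9.15% of all genes called and 28.8% at an unadjusted p under 0.05. The values with the smallest p were 0.38 ± 0.13 for Grip2, a PDZ protein that binds GluA2 (adjusted p = 0.063), -0.21 ± 0.08 for Vps35, a retromer subunit (adjusted p = 0.10), and 0.15 ± 0.07 for Dlg4, the gene of PSD-95 (adjusted p = 0.13). Grip2 passed without saline replicate 5 or 7 (0.45 and 0.43) and Vps35 without PICK1i replicate 4 or 7 (-0.26 and -0.27). Without PICK1i replicate 7, 2757 genes were called in all. With only the 2 groups fitted or without PICK1i replicates 1, 2, 5 and 6, 0 genes were called in all, and 2 with length tilt as a covariate. In PSD-95i against saline 0 of the 21 and 0 of the 19 were called, with 3 of each at an unadjusted p under 0.05, beside 0% and 11% of all genes. The smallest p in the lists belonged to Olfm2, at 0.30 ± 0.10 (adjusted p = 0.36), followed by Cacng5, the gene of TARP gamma-5 (0.23 ± 0.10, adjusted p = 0.43), and Nsf, an ATPase that binds GluA2 (0.19 ± 0.09, adjusted p = 0.44).

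In PSD-95i against PICK1i 0 of the 21 and 0 of the 19 were called in edgeR, with 2 and 6 at an unadjusted p under 0.05, beside 0% and 24.2% of all genes. Cacng5 averaged 22.9 ± 1.48 CPM in PSD-95i and 17.3 ± 3.26 CPM in PICK1i, a log2 fold change of 0.40 ± 0.10, just outside the threshold (adjusted p = 0.051). Vps35 averaged 144 ± 5.51 CPM in PSD-95i and 116 ± 21.8 CPM in PICK1i, for 0.31 ± 0.08 (adjusted p = 0.051). Pick1 averaged 60.9 ± 2.50 CPM in PSD-95i and 71.5 ± 10.2 CPM in PICK1i, for -0.23 ± 0.07 (adjusted p = 0.068). DESeq2 called Cacng5, Vps35 and Pick1 at adjusted p of 0.012, 0.013 and 0.029, where it called 8.67% of all genes. Without PICK1i replicate 7 edgeR called them too (adjusted p = 0.014, 0.0055 and 0.0087), among 2315 genes in all, and likewise without PICK1i replicate 4. Cacng5 and Vps35 also passed without PICK1i replicate 3, and Cacng5 without PICK1i replicate 8. In several other fits 0 of all genes were called between the inhibitors, so these 3 were not either. Those fits used length tilt as a covariate, only the 2 groups, the random block of consecutive numbers, or left out PICK1i replicates 1, 2, 5 and 6.

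Over the 24 libraries, after subtracting group means, the 10 genes moved largely together. Pearson r of log2 CPM over their 45 pairs ran from -0.04 to 0.85 with a median of 0.51, and over the 18 libraries other than saline replicates 2 and 3 and PICK1i replicates 1, 2, 5 and 6 the median was 0.10. The points share library depth and tissue content, and these values are descriptions. Of 15645 other genes, the nearest in pattern to Gria1 were Grid1, the gene of glutamate receptor delta-1 (r = 0.91), Spock1 (0.91) and Ntrk2, the gene of the BDNF receptor TrkB (0.91). To Gria2 the nearest were Trim2 (r = 0.90), Hecw1 (0.90) and Evi5 (0.87), and to Shisa7 Agap3 (0.90), Evl (0.89) and Zmym3 (0.88). Over the 18 libraries these values were 0.58, 0.55 and 0.74 for Gria1, 0.85, 0.70 and 0.75 for Gria2, and 0.91, 0.79 and 0.89 for Shisa7.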

How the data were processed

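Libraries were stranded poly(A) preparations read as 52-base pairs, per the labels' protocols. The authors deposited estimated counts for genes and for transcripts without normalisation, made on GRCm38 with Salmon, STAR and bcl2fastq 2.20.0, per the submitters' processing notes. The sources used here do not give other versions, the annotation or the use of strand in counting. Strand matters for Cacng2, which overlaps the antisense gene A730060N03Rik (mean count 10.8). Estimated counts were rounded, filtered by filterByExpr (minimum count 10, 99.3% of counts kept), scaled by TMM and tested in 1 fit of all 24 libraries with edgeR 4.0.16 (quasi-likelihood F test, R 4.3.3, 21 residual degrees of freedom, two-sided), with Benjamini-Hochberg adjustment over all features and a threshold of 0.05. Standard errors come from the F statistic. Transcript usage was tested by diffSpliceDGE on the same scale. TPM and lengths used GENCODE M21, which held 45143 of the gene identifiers and 99.5% of counts. The procedure was tested on simulated data. There, 20 to 36% of 1.25-fold gene changes and 38 to 56% of 2-fold usage changes were called over the 3 comparisons. Many differences of such size would therefore not be called. Of the calls in the simulation, 0.68 to 6.16% were false for genes and 6.62 to 13.1% for usage. A usage call counted as true if any transcript of its gene had been changed. Simulated counts were independent between genes and held no differences in tissue content or length tilt between libraries. These rates may therefore not hold for the deposited data. Of 276 pairs of libraries 0 were identical.

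Named were the 10 genes in every comparison, called partner genes or up to 3 with the smallest p, transcripts with at least 10% of a gene's counts, and the 3 genes most like Gria1, Gria2 and Shisa7. Gria2-202 holds less and was named for its p. The genes, lists and alternatives were chosen with earlier results of these data known. Alternatives were RLE size factors, other filters, DESeq2 1.42.0, limma-voom (limma 3.58.1), blocks, fits of 2 groups and left-out libraries. Without separate animals stated, p-values measure the spread between libraries, which may be technical.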

Additional observations from a re-analysis of the deposited data

Results flagged for a closer look

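Of 42 groups of 8 libraries examined, 3 held a library far from the others by Dixon's criterion, which chance meets in about 1 in 20 groups. PICK1i replicate 6 had 122.1 CPM of Gria3, against 92.7 CPM in the next PICK1i library. The same library had 60.9 CPM of Cacng3, against 29.1 CPM in the next, and it also held the most cortex and hippocampus markers, 1028.7 CPM. Saline replicate 3 had the lowest Gria1 flip share of its group, 88.9%, against 92.4% in the next saline library, and it was 1 of the 2 libraries with abundant pituitary markers.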

How the results depend on the processing

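The 2 calls in PICK1i against saline, Cacng7 and Shisa7, held with RLE size factors, no filter, a minimum count of 50, DESeq2, limma-voom and the replicate block (0.25 and 0.33 in that fit, with 1127 genes called in all). Deviations from the group mean were little correlated between samples with the same replicate number (24 pairs, r from -0.19 to 0.15, 5 over 0.1). The labels do not say what the number means, and low r cannot exclude a pairing. For libraries of consecutive number r ran from -0.60 to 0.28 (12 pairs, median 0.03). The replicate block gave 0 calls among the 10 genes in the other comparisons. The 2 calls became 0 with limma-voom with sample weights, limma-voom with a random block of consecutively numbered libraries, length tilt as a covariate, only the 2 groups compared, and without saline replicates 2 and 3, without PICK1i replicates 1, 2, 5 and 6 or with PICK1i replicate 6 or all 6 libraries left out too. The number of genes called in all, 1434, fell there to 3, 316, 2, 0, 5, 0, 3 and 0. Leaving out 1 library gave 0 to 2 of the 10 genes and 299 (without PICK1i replicate 5) to 2757 genes in all (without PICK1i replicate 7). In PSD-95i against PICK1i the 0 calls became 1, Gria1, in DESeq2 and without saline replicates 2 and 3 (1208 genes in all), and 0 to 1 when 1 library was left out (0 to 2315 genes in all, the most without PICK1i replicate 7). In PSD-95i against saline 0 genes were called in every fit, where 0 to 0 of the 10 passed with 1 library left out. Called transcripts in PICK1i against saline were 1 with a minimum count of 50 and 3 in DESeq2, and 0 to 5 with 1 library left out. Between the inhibitors they were 1, 1 and 0 to 7, and called usage was 0 to 1.

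Some log2 fold changes changed sign, none of them of a called gene, and the cause was not tested. In PICK1i against saline without saline replicates 2 and 3, Gria4 was at -0.0566, Cacng2 at -0.0201 and Cacng4 at -0.0107. With PICK1i replicate 6 left out as well, Gria3 was at -0.0160, Gria4 at -0.0578, Cacng2 at -0.0218 and Cacng3 at -0.0053, and with PICK1i replicates 1, 2, 5 and 6 left out as well Cacng3 was at -0.0535 and Cacng4 at -0.0008. Without these 4 alone, Gria1 was at 0.0174, Gria2 at 0.0945 and Cacng8 at 0.0105, and with length tilt as a covariate they were at 0.0317, 0.1532 and 0.0778. Gria4 was at -0.0085 with a minimum count of 50, -0.0261 with sample weights and -0.0063 with only the 2 groups.

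In PSD-95i against saline without saline replicates 2 and 3, Gria2 was at -0.0837, Gria3 at -0.0640, Cacng2 at -0.0645, Cacng3 at -0.0177 and Cacng8 at -0.0002. With PICK1i replicate 6 left out too they were at -0.0838, -0.0639, -0.0645, -0.0174 and -0.0000, and with all 6 libraries left out the 4 lowest were at -0.0840, -0.0631, -0.0645 and -0.0157. With sample weights Gria2, Gria3 and Cacng2 were at -0.0480, -0.0390 and -0.0394, and Gria2 was at -0.0029 with length tilt.

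In PSD-95i against PICK1i, length tilt gave -0.1562 for Gria2, -0.0331 for Gria4, -0.0229 for Cacng4, -0.0493 for Frrs1l, -0.0003 for Shisa9 and -0.0041 for Myo5a. Without PICK1i replicates 1, 2, 5 and 6, Gria2 was at -0.0642 and Cacng3 at 0.0373 (-0.0643 and 0.0378 without saline replicates 2 and 3 as well), and Cacng4 was at -0.0367 without saline replicates 2 and 3 and PICK1i replicate 6.

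With 1 library left out, ranges that crossed 0 in PICK1i against saline were -0.0819 to 0.0399 for Gria2, -0.0279 to 0.0449 for Gria4 and -0.0816 to 0.0359 for Cacng8. Over these fits and those without saline replicates 2 and 3 and PICK1i replicate 6, the lowest values were -0.1345 for Gria2 and -0.1702 for Cacng8, and the highest were 0.1884 for Gria3, 0.1672 for Cacng2 and 0.3989 for Cacng3. In PSD-95i against saline the ranges that crossed 0 were -0.0367 to 0.0823 for Gria2, -0.0163 to 0.0562 for Gria3 and -0.0157 to 0.1048 for Cacng2, with highest values of 0.1745 for Cacng3 and 0.1859 for Cacng8, and between the inhibitors -0.0393 to 0.0352 for Cacng4. Depth limits Cacng3 most, with a mean count of 188 and a counting error of 7.30%, and transcript counts carry an added error of read assignment that is not in the tests.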
